A study of Mus musculus with 2 samples.

Results

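The genes described here are 32 mouse genes known from red blood cells and their precursors: 7 for globin chains and the alpha globin chaperone, 6 for the membrane skeleton, 11 for membrane transporters, channels and blood group proteins, 4 for a receptor and nuclear regulators, and 4 for enzymes. They were chosen by name, and their probes were found by the gene names of the array annotation, among 35009 genes on the array. Of the 32 genes, 31 had a probe under their name, and Hbb-bt had none. They were read in mast cells grown from the bone marrow of C57BL/6 mice, with 1 array for cells transfected with a control siRNA and 1 array for cells transfected with an siRNA against GATA1, each siRNA at 200 pmol. The mouse age, the siRNA sequences and the time from transfection to RNA extraction are not given in the sources used here. Both groups carried no other allele or agent in the labels, and both were grown in interleukin 3 for 2 weeks and then for another 2 weeks with stem cell factor added, each factor at 10 ng/mL. RNA from 2 animals was pooled for each array. Each group is a single array, so the differences below have no spread between replicates and no p-value, and their precision is limited by the number of arrays.

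GATA1 is a zinc finger transcription factor that binds the letters GATA in DNA and is required for red cell development. In red cell precursors it acts with partners such as FOG1 (Zfpm1), TAL1, LMO2 and LDB1 on genes for globins, haem synthesis, the membrane skeleton and the erythropoietin receptor. Mast cells express GATA1 and GATA2 as well, but are not known for making red cell proteins. The comparison reads the red cell genes in a cell of another lineage in which GATA1 RNA was lowered.

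The array reports each gene through probes of 60 bases, and the probes named in the results are shown here by a stretch of 30 bases each, because the globin genes are close relatives and the reading of each rests on its own probe. The stretches are bases 1 to 30 of each probe, except for Hemgn, where they are bases 19 to 48. The Hemgn capitals mark letters that 86 other probes of the array also hold, as such or as the reverse complement. Lower case letters mark nothing.
Epor: gaacgggattggtgaagccatacttaaagt
Icam4: ctggagcgcttcaccggttcagatttggct
Hba-a1: tacttccctcactttgatgtaagccacggc
Hba-a2: ttcttctctcccttgcacctgtacctcttg
Hbb-b1: ttttctgctattgtctatgcacaaaggtta
Hbb-b2: tatcatgggtaatcccaaggtgaaggccca
Hbb-bh1: taaactccattccagtacactggcaatccc
Hemgn: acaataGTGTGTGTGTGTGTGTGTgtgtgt

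The array annotation places the Epor probe at chr9:21763422-21763481 on the minus strand and the Icam4 probe at chr9:20834524-20834583 on the plus strand of mouse build mm9. It places the alpha globin probes at chr11:32183955-32184014 (Hba-a1) and chr11:32197245-32197304 (Hba-a2), both on the plus strand. On the minus strand of chromosome 7 it places the Hbb-b1 probe at chr7:110961105-110961164 and the Hbb-bh1 probe at chr7:110990209-110990268. The annotation lists the Hbb-b2 probe as unmapped. Which exon or untranslated part each probe lies in was not analysed here. Pairs of the 5 globin probes shared at most 8 bases in a row on either strand. That comparison was of the probes with each other and not with the RNA of other globin genes. Hba-a1 and Hba-a2 are near-identical genes. How much RNA of another globin gene each of the 5 probes also binds was not tested. The accession of the Hbb-b1 probe carries the symbol Hbb-bt in RefSeq. C57BL/6 mice carry the beta globin haplotype whose adult genes are called Hbb-bs and Hbb-bt, while Hbb-b1 and Hbb-b2 are the names of the adult genes of another haplotype, so the beta globin values are given under the names of the array.

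Signals are processed signals in scanner units, and differences are log2 values of GATA1 siRNA minus control siRNA after each array was divided by its 75th percentile (303 and 340.0). A gene was measured where the scanner software called it well above background on both arrays. The error printed with a difference is the software's own error of a spot and holds no biological spread. The GATA1 siRNA array had Gata1 at 3930 against 16415, a difference of -2.23 ± 0.20 (software error), or 4.68-fold lower. Over the 20524 measured genes the median difference was 0.01 and the SD was 0.29. Of these genes 125 were at least 2-fold lower and 60 at least 2-fold higher. Probes printed several times gave differences with a median SD of 0.06 between spots over 240 probes, and of 0.18 over the dimmest 60 of them.

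Of the 31 genes with a probe, 18 (58.1%) were measured on both arrays, against 58.6% of all genes, and the other 13 were not well above background with either siRNA. The 18 measured genes had a median difference of -0.07, with 7 above 0 and 11 below. Of all measured genes, 10816 lay above 0 and 9708 below. Counts above and below 0 in the lists that follow are to be read beside this split. At the 2-fold rule 1 of the 18, Epor, was lower, where 0.609% of all measured genes were, and 1, Hba-a2, was higher, at the edge of the rule, where 0.292% were. In either direction 0.901% of all measured genes passed. At a 1.5-fold rule 3 were lower (Epor, Icam4 and Hbb-bh1), where 2.77% of all measured genes were. At the same rule 3 were higher (Hba-a1, Hba-a2 and Hbb-b1), where 1.83% were. Hbb-b1 passed at 1.51-fold, the edge of this rule, and fell short of it under several processing alternatives. Hba-a1 and Hbb-bh1 fell short of it after another background correction. The difference was larger than its software error for 13 of the 18 genes and larger than 3 times that error for 5. The same shares over all measured genes were not counted, so these counts show nothing particular to the members. In pooled RNA, fewer cells of a type and less RNA per cell cannot be told apart.

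**Figure D1:**
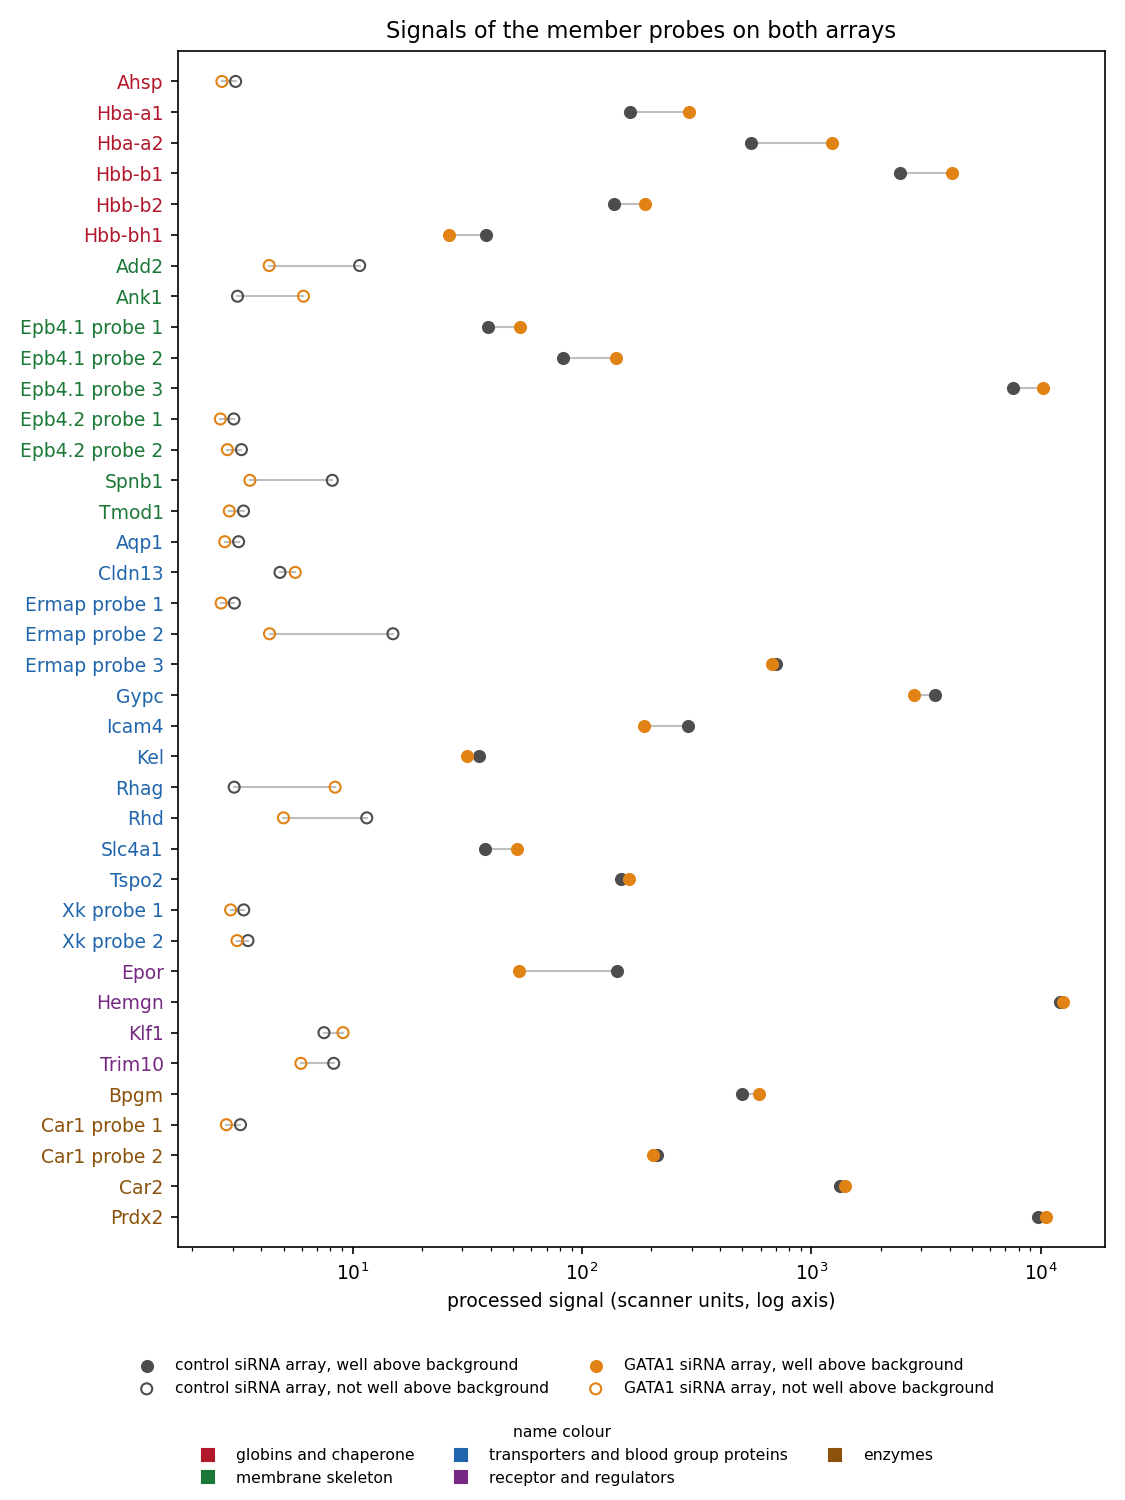
Processed signal of each of the 38 probes of the 31 genes on the control siRNA array (dark) and the GATA1 siRNA array (orange), on a log axis in scanner units, before division by the 75th percentile. Filled circles are probes well above background on both arrays and open circles are those that were not; the open circles of the 13 unmeasured genes lie between 2.65 and 11.5, and the Epor pair is the widest among the filled ones.

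Epor encodes the erythropoietin receptor, the cytokine receptor through which red cell precursors receive survival signals, and it has long been described as a GATA1 target. Its single probe read 142 with the control siRNA and 53.3 with the GATA1 siRNA. The difference was -1.58 ± 0.22 (software error), or 3.0-fold lower, at rank 36 of 20524 genes counted from the lowest. The difference was -0.99 after another background correction (normexp with an offset of 50), just short of the 2-fold rule. Among the 18 measured members Epor was the farthest from 0, and on the lower side it stood apart from the next gene, Icam4, by more than the software error of either.

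The nuclear regulators of the set gave no comparable reading. Klf1, the zinc finger activator of adult beta globin, was not well above background, with signals of 7.5 and 9.08. Trim10, a RING finger protein of erythroid cells, was not either, with signals of 8.27 and 5.95. Hemgn, a nuclear protein of blood progenitors known as hemogen, was read at 12068 and 12439, a difference of -0.12 ± 0.20. That probe is unusual: bases 25 to 60 are an uninterrupted alternation of G and T, 36 bases long. Another 89 probes of the array share at least 18 bases with it, 62 on the same strand and 27 on the opposite one. All 89 were measured on both arrays, against 51.6% of all probes, and their differences ran from -0.26 to 0.18 with a median of -0.11. Whether the signal comes from Hemgn RNA was not tested. Without Hemgn the members' median stayed within the range given for the other alternatives in the closing section, and no probe of another member shared 18 bases with any probe of the array.

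Of the 5 measured globin members, both alpha globin probes and the probes named Hbb-b1 and Hbb-b2 read higher on the GATA1 siRNA array and Hbb-bh1 read lower, with Hba-a2 the 1 gene at the 2-fold rule. Hba-a2, 1 of the 2 adult alpha globin genes, read 546 with the control siRNA and 1225 with the GATA1 siRNA, a difference of 1.0 ± 0.20, or 2.0-fold. Hba-a1, the other adult alpha globin gene, read 161 and 291, a difference of 0.69 ± 0.21. Of all measured genes, 2.97% lay at least as far from 0 as Hba-a1. Both alpha globin probes therefore read higher on the array with less Gata1 RNA.

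The probe named Hbb-b1, for an adult beta globin chain, read 2422 and 4100, a difference of 0.59 ± 0.20. The probe named Hbb-b2, after an adult gene of another haplotype, read 138 and 187, a difference of 0.27 ± 0.21. Of all measured genes, 21.8% lay at least as far from 0. The annotation lists this probe as unmapped, and which globin RNA of this strain it reads was not tested. The probe named Hbb-bs, after an adult gene of this strain, was not well above background, with signals of 7.80 and 8.80. Hbb-bh1, a beta-like gene of the embryo, read 38.2 and 26.2, a difference of -0.71 ± 0.29, which was -0.33 after normexp correction. Ahsp, the chaperone that holds free alpha globin, was not well above background, with signals of 3.09 and 2.69. Of the 5 measured globin probes 4 were above 0 and 1 was below, with a median of 0.59 against 0.01 for all measured genes. Hba-a2 was 0.95 after normexp correction and 1.06 with scaling to the median of probes, and the 2-fold call was lost with normexp correction, with the 75th percentile of detected probes, with quantile scaling and with loess scaling.

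Hbb-y, the embryonic epsilon-like gene, read 25.02 and 39.4 as means of its probes, a difference of 0.49 ± 0.22. Hbb-bh2, another beta-like gene, was at -0.30 ± 0.27 on the 1 of its 3 probes that was measured. Of the 10 other globin genes listed, 9 had a probe, these 2 were measured and neither was 2-fold apart. Hba-x, Hbq1a, Hbq1b, Hbb-bs and Ngb (neuroglobin) did not pass the background call on either array. Mb, myoglobin, passed the background call with the control siRNA alone and was at least 1.47-fold higher there, a bound set against the lowest signal that passed (15.2 for the control siRNA and 13.3 for the GATA1 siRNA). Cygb, cytoglobin, was above background on the GATA1 siRNA array alone, with signals of 13.3 and 16.9 that allow no fold. The embryonic genes Hbb-bh1 and Hbb-y thus read in opposite directions, both at low signals.

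**Figure D2:**
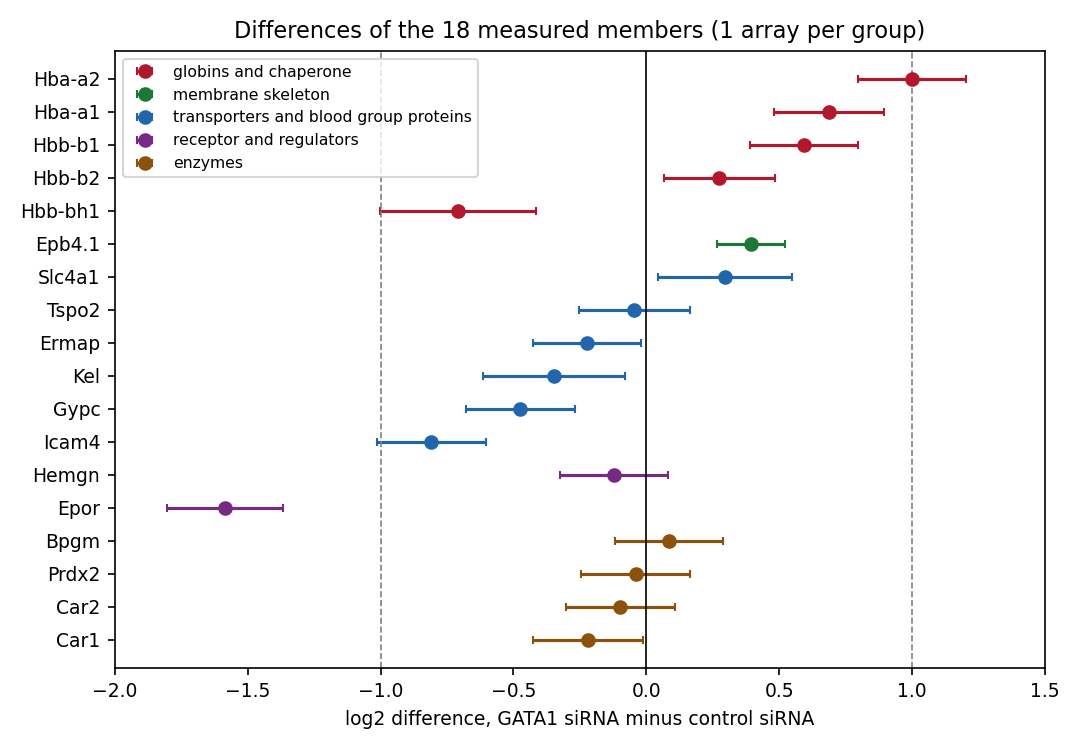
Log2 difference (GATA1 siRNA minus control siRNA) of the 18 measured genes, coloured by role; each point is 1 pair of arrays, bars are the software error of the difference and not a spread between replicates, and dashed lines mark 2-fold. Epor lies at -1.58 beyond the lower line, Hba-a2 at 1.0 lies on the upper line, and the other 16 genes lie between the lines.

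Markers of neutrophils and macrophages also read higher on the GATA1 siRNA array. All 8 neutrophil markers, granule proteins such as Ngp and Ltf among them, were above 0, between 0.33 and 0.79 (median 0.60). Their summed signal, in units of each array's 75th percentile, was 79.8 with the control siRNA and 119 with the GATA1 siRNA. All 6 macrophage markers were above 0 as well, between 0.02 and 1.09 (median 0.57), and their sum was 12.04 and 20.8. The highest were Ms4a7 at 1.09 and Cd68 at 1.07, while Csf1r at 0.02 ± 0.12 and Cd14 at 0.21 ± 0.23 lay within their software error. The 10 mast cell markers were all measured and summed to 2544 and 2330, with 4 above 0, 6 below and a median of -0.10. Kit was at 0.03 and Cpa3 at 0.04, and the lowest were the proteases Mcpt4 at -0.88 and Tpsb2 at -0.55 and the receptor Il1rl1 at -0.32. The part of other cells in the globin values was not tested.

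The erythroid markers gave a divided reading. Of 9 markers 4 were measured, all of them members (Hba-a1, Hbb-b1, Slc4a1 and Epor). Their sum was 9.11 with the control siRNA and 13.2 with the GATA1 siRNA. Hbb-b1 alone gave 7.99 and 12.06 of these sums. The other 5 did not pass the background call on either array. Alas2, the erythroid enzyme that starts haem synthesis, read 3.30 and 2.87. Spna1, erythroid alpha spectrin, read 3.57 and 2.96, and Rhag and Klf1 were not measured either. The globin signals were thus read in RNA in which these 5 markers were not well above background. By a weaker call of the software, signal significantly above background, Klf1 passed on both arrays and Rhag on the GATA1 siRNA array. Of the megakaryocyte markers 8 of 9 were measured, 3 above 0 and 5 below, with a sum of 58.8 and 49.7. Gp1ba, a platelet receptor chain, was the 1 of these past the 2-fold rule, at -1.02 ± 0.20 with signals of 7638 and 4223, and Itga2b was at 0.25 ± 0.20. The 6 eosinophil markers, 5 of them below 0, summed to 26.9 and 18.7, and the 3 basophil markers to 185 and 216.

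The membrane skeleton of the red cell is a net of spectrin and short actin filaments tied to the membrane by ankyrin and protein 4.1. Epb4.1, which encodes protein 4.1, was the 1 measured gene of the 6, and each of its 3 probes read higher on the GATA1 siRNA array. The brightest probe read 7559 and 10243 (0.27 ± 0.20), the next read 82.3 and 141 (0.61 ± 0.21), and the dimmest read 39.0 and 53.5 (0.29 ± 0.25). The mean was 0.39 ± 0.13, which was 0.24 after normexp correction. Protein 4.1 is made by many cell types besides red cells.

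The other 5 skeleton genes were not well above background. Ank1, erythroid ankyrin, read 3.15 and 6.10, and Spnb1, erythroid beta spectrin, read 8.15 and 3.56. Add2, beta adducin, read 10.73 and 4.33, and Tmod1, which caps actin filaments, read 3.34 and 2.90. Epb4.2, whose protein binds band 3, read at most 3.27 with both of its probes. Signals at this level have no order, and no fold is given. Some relatives of these genes that other cells use were measured. Spna2, the general alpha spectrin, was at 0.07 and Spnb2, the general beta spectrin, at 0.22. Add1, alpha adducin, was at 0.02 and Add3, gamma adducin, at -0.20. Spnb4, Tmod3 and Tmod4 were measured as well. Other relatives failed the background call with both siRNAs: the ankyrins Ank2 and Ank3, the beta spectrins Spnb3 and Spnb5, and Tmod2.

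Among the 11 genes for transporters, channels and blood group proteins, 6 were measured, with 1 above 0, 5 below and a median of -0.29. Icam4, the adhesion protein that carries the LW blood group, read 290 with the control siRNA and 186 with the GATA1 siRNA, a difference of -0.81 ± 0.21. This was rank 232 from the lowest, and 1.78% of all measured genes lay at least as far from 0. Gypc, glycophorin C, which links protein 4.1 to the membrane, read 3468 and 2800, a difference of -0.47 ± 0.20. Gypc and Epb4.1, whose proteins bind each other, thus read in opposite directions.

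Kel, the Kell blood group protease, read 35.7 and 31.5, a difference of -0.35 ± 0.27 that was -0.19 after normexp correction. Ermap, the erythroid membrane protein of the Scianna blood group, was measured with 1 of its 3 probes, at 702 and 675 and a difference of -0.22 ± 0.20. With its dim probes counted the mean was -0.84, which rests on a probe that read 14.98 and 4.34 and was not well above background. Tspo2, an erythroid cholesterol-binding relative of the translocator protein, read 148 and 161, a difference of -0.05 ± 0.21. For Tspo2 the sign turned to 0.02 with scaling to the median of probes.

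Slc4a1, band 3, the anion exchanger and main integral protein of the red cell membrane, was the 1 gene of this group above 0. It read 37.6 and 51.9, a difference of 0.30 ± 0.25 that was 0.07 after normexp correction. The Rh proteins, which share a membrane complex with band 3, were not well above background: Rhag read 3.04 and 8.38, and Rhd read 11.5 and 4.99. Aqp1, the water channel, read 3.18 and 2.77, and Cldn13, a claudin, read 4.82 and 5.62. Xk, the partner of the Kell protein, read at most 3.50 with both of its probes. The 13 genes not measured had 15 probes, with signals of 3.03 to 11.5 on the control siRNA array and 2.65 to 9.08 on the other. By a weaker call of the software, signal significantly above background, 9 of the 13 passed on at least 1 array, and Ahsp, Epb4.2, Tmod1 and Xk did not. How many of all unmeasured genes pass that weaker call was not counted, so the 9 show nothing particular to the members.

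The 4 enzymes were all measured and lay close to 0, with a median of -0.07 and 3 of 4 below 0. Car1, the carbonic anhydrase most typical of red cells, read 211 and 203 on the 1 of its 2 probes that was measured, a difference of -0.22 ± 0.21. Car2, a carbonic anhydrase of many tissues, read 1333 and 1397, a difference of -0.10 ± 0.20. Prdx2, a peroxidase that red cells hold in quantity, read 9683 and 10559, a difference of -0.04 ± 0.20. Bpgm, which makes the 2,3-bisphosphoglycerate that lowers the oxygen affinity of haemoglobin, read 498 and 592, a difference of 0.08 ± 0.20. Except for Car1, each of these differences was smaller than its software error.

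**Figure D3:**
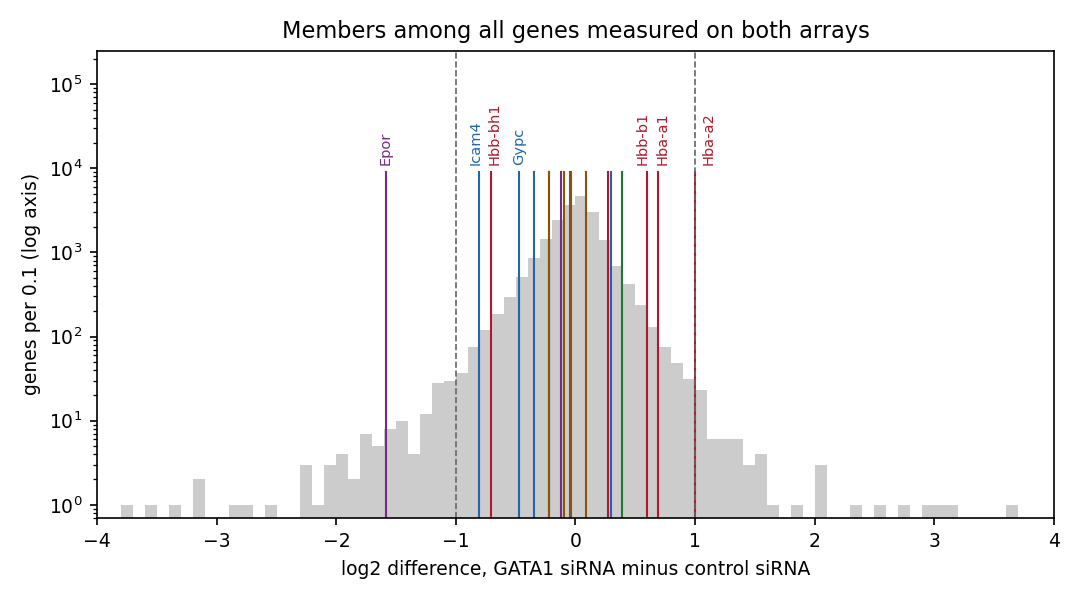
Number of genes per 0.1 of log2 difference over the 20524 measured genes (grey, log axis), with coloured lines of arbitrary height at the 18 measured red cell genes, coloured by role, and dashed lines at 2-fold. Most lines fall in the bulk of the distribution, with Epor at -1.58 in the lower tail and Hba-a2 at 1.0 in the upper one.

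None of the measured genes of erythropoietin receptor signalling passed the 2-fold rule. Of 33 genes listed, 31 had a probe and 27 were measured, 21 above 0 and 6 below, with a median of 0.08. Jak2, the kinase bound to the receptor, read 3696 and 4852, a difference of 0.23 ± 0.20. Stat5a was at 0.19 ± 0.20 and Stat5b at 0.06 ± 0.14, the transcription factors that the kinase activates. The 4 genes farthest from 0 were Cbl at 0.55, a ubiquitin ligase, Socs3 and Id1, each at 0.51, and Pim2 at 0.44. Epo itself was not well above background, with signals of 3.31 and 7.38, and Spry1, an inhibitor of receptor tyrosine kinase signalling, was above background on the GATA1 siRNA array alone and at least 2.06-fold higher there.

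The partners of GATA1 and other erythroid transcription factors had a median of 0.04 over 24 measured genes of 25, with 14 above 0 and 10 below. Gata1 was the 1 gene of this list past the 2-fold rule. The 3 next farthest from 0 were Klf2 at 0.51, a relative of Klf1, Lmo2 at 0.49 and Nfe2 at 0.40. Gata2, the other GATA factor of mast cells, read 25309 and 27499, a difference of -0.05 ± 0.20. Zfpm1 was at -0.09, Tal1 at -0.04 and Gfi1b, a transcriptional repressor that acts in the red cell and megakaryocyte lineages, at -0.37.

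The 12 measured genes of haem synthesis, of 13 listed, had a median of -0.03 with 6 above 0 and 6 below, and none was 2-fold apart. Cpox, coproporphyrinogen oxidase, was the farthest from 0, with signals of 572 and 412 and a difference of -0.64 ± 0.20. Alad, the enzyme that makes porphobilinogen, was at 0.29 and the mitochondrial transporter Abcb10 at -0.26. Alas1, the form of the first enzyme that all cells use, was at 0.07 ± 0.14. A further list of 36 red cell membrane and enzyme genes had 26 measured, 18 above 0 and 8 below, between -0.35 and 0.46 (median 0.15). The 4 farthest from 0 were Kcnn4, the Gardos potassium channel, at 0.46, Ctse, cathepsin E, at 0.39, Cd47 at 0.38 and Tfr2, transferrin receptor 2, at -0.35. The urea transporter Slc14a1 was above background on the GATA1 siRNA array alone and at least 1.95-fold higher there, and the transporter Slc22a4 likewise at least 1.08-fold.

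Relatives of the members that other cells use numbered 50, of which 37 were measured, 20 above 0 and 17 below, with a median of 0.02. Slc4a11, a membrane transporter of the band 3 family, read 265 and 100.4, a difference of -1.56 ± 0.21, and was the 1 gene of this list past the 2-fold rule. Car8, a relative of the carbonic anhydrases, was at -0.61 ± 0.14, with signals of 612 and 448. The next farthest from 0 were Klf2 and the water channel Aqp3, which was at 0.50 ± 0.31 and read 22.8 and 36.1.

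The promoters of the members are shown because GATA1 binds DNA by a short motif whose letters can be looked up. Windows of 250 bases before to 50 after the start were read from the RefSeq table (build GRCm38.p6). They covered 22 of the member genes, 24 windows in all, with Hbb-b1 matched through its accession to Hbb-bt. The remaining members, the measured gene Gypc among them, were not searched and are absent from the member motif counts. The 200 bases before the start are printed for Epor and Icam4, the 2 lowest members, for Hba-a2, the highest, and for Hbb-b1, the third from the top. Hba-a1, which lies between Hba-a2 and Hbb-b1, is not printed because its window is nearly that of Hba-a2. Capitals mark the GATA motif (the letters GATA with A or T before them and A or G after them, on either strand) in the first 3, and the CACCC motif and the TATA motif in the Hbb-bt window, which holds no GATA motif.
Epor: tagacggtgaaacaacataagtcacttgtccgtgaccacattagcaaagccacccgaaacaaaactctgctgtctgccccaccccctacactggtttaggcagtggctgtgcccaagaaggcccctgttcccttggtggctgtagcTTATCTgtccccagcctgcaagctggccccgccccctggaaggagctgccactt
Icam4: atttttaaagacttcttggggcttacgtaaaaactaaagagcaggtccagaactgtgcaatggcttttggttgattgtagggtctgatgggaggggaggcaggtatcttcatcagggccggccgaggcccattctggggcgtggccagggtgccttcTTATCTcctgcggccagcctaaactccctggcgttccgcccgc
Hba-a2: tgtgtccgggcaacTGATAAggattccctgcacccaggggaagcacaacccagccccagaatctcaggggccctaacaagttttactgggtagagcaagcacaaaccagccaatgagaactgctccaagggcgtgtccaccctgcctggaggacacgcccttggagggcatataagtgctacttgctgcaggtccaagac
Hbb-b1 (Hbb-bt): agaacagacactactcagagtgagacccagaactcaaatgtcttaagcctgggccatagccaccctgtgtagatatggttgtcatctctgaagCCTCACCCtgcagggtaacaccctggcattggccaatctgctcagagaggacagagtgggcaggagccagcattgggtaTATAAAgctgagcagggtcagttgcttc

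These stretches lie at chr9:21963577-21963776 on the minus strand (Epor), chr9:21029232-21029431 on the plus strand (Icam4), chr11:32296292-32296491 on the plus strand (Hba-a2) and chr7:103813924-103814123 on the minus strand (Hbb-bt). The Epor motif lies at bases -54 to -49 from the start and the Icam4 motif at -43 to -38, both in the reverse orientation. The Hba-a2 motif lies at -186 to -181. The Hba-a1 and Hba-a2 windows of 300 bases share a run of 297 bases, with the motif at -183 to -178 in the former. Kel holds 2 GATA motifs, at -56 to -51 and at -19 to -14, and Klf1 holds 1, at -80 to -75.

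A GATA motif was present in 15 of the 22 genes (16 of 24 windows), against 29.8% of 32851 windows of that length in the table. The CACCC motif, which KLF1 and its relatives bind, was searched as CCACACCC or CCNCNCCC on both strands, and the former is a case of the latter. The latter is loose: all Hemgn matches were runs of G alone, so a match need not hold the letters CACCC on either strand. A match was present in 14 of the 22 genes (15 of 24 windows), against 49.5% of all windows. TATAAA was present in 4 of 22 (4 of 24 windows), against 13.6%. The genes are erythroid by choice, so these shares describe the list and say nothing of the siRNA. Genes with a GATA motif lay on both sides of 0, with Epor and Icam4 below it and Hba-a1 and Hba-a2 above it, and Klf1, Rhag and Rhd with a motif were not well above background. A match is a run of letters and was not tested as a binding site.

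**Figure D4:**
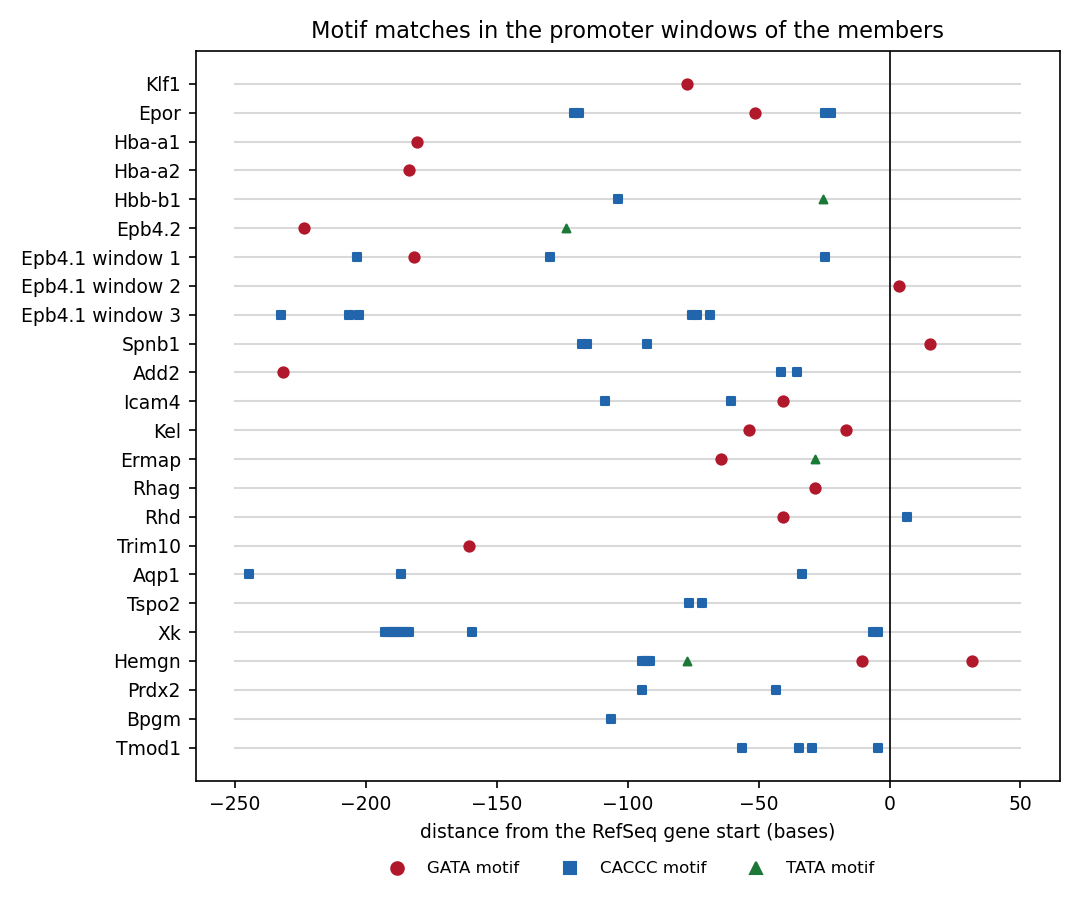
Positions of the GATA (circles), CACCC (squares) and TATA (triangles) motif matches in the 24 promoter windows, as distance in bases from the RefSeq gene start at 0. The circles of Epor, Icam4, Kel, Klf1, Ermap, Rhag and Rhd lie within the 80 bases before the start, while those of Hba-a1 and Hba-a2 lie farther out.

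Across the alternatives in processing Epor ran from -1.61 to -0.99, Icam4 from -0.83 to -0.64 and Gypc from -0.53 to -0.41. Hba-a1 ran from 0.51 to 0.75 and Hbb-b1 from 0.54 to 0.66. The sign turned for Tspo2 and Prdx2, which were close to 0, and for no other of the 18 genes. No member probe lay where 2 or more neighbouring spots also differed 4-fold, a pattern found at 748 spots of the array.

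**Figure D5:**
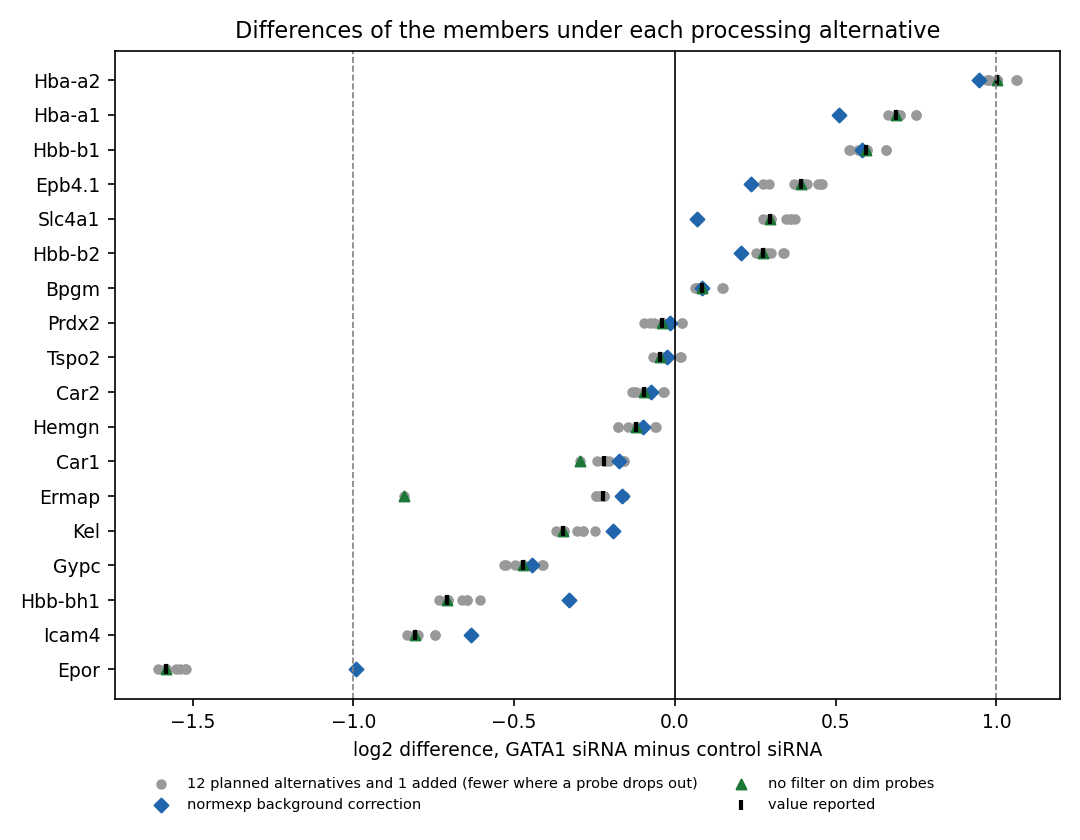
Log2 difference of each of the 18 measured genes as reported (black ticks) and under each alternative (grey), with normexp background correction (blue diamonds) and no filter on dim probes (green triangles) marked; dashed lines mark 2-fold. The blue diamond of Epor sits at -0.99, just inside the lower line, and the green triangle of Ermap at -0.84, while the points of the other genes stay closer together.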

How the data were processed

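Cy3-labelled RNA of 2 pooled samples was read on 2 Agilent arrays. Per the file headers, the authors read the spots as intensity values with Agilent Feature Extraction 10.7.3.1: background-subtracted, spatially detrended processed signals in scanner units, with no scaling between arrays. A second deposited table holds normalized intensity, which equals each array's processed signal divided by its median over spots (21.9 and 23.6), found by matching values; it served as an alternative.

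Control spots and spots flagged as outliers on either array (117 and 133) were left out, repeated spots were averaged on the log2 scale (55659 probes) and each array was divided by its 75th percentile. Of the probes, 52.7% and 55.2% were well above background, and none was saturated. A gene is the mean of its probes that were well above background on both arrays. Names came from the array annotation for members and otherwise from RefSeq (GRCm38.p6) by accession; probe coordinates are those of the annotation (mm9). Python 3.11.15, R 4.3.3 and limma 3.58.1 (normexp) were used.

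With 1 array per group a 2-fold rule of size replaced a test, and lists were described by counts and medians. All members, the targeted gene, up to 4 of each list farthest from 0 and defining cell type markers were named; other named genes were chosen after their values were seen. The members and lists were chosen with earlier results of these data known. A gene among the erythroid markers and lists is counted but not reported here.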

Additional observations from a re-analysis of the deposited data

How the results depend on the processing

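Background correction, scaling, the filter on dim probes, the summary over probes, outlier spots and neighbouring spots that differ together were varied 1 at a time. At least 2-fold lower were 0 members with normexp correction, 4 without the filter on dim probes (Epor, Spnb1, Add2 and Rhd), 3 at the 1.5-fold rule and 0 at the 3-fold rule. At least 2-fold higher were 0 with normexp correction, with the 75th percentile of detected probes, with quantile and with loess scaling, 2 without the filter (Hba-a2 and Rhag), 3 at the 1.5-fold rule and 0 at the 3-fold rule. The members' median was -0.0079 with scaling to the median of probes, -0.0099 with the authors' table and -0.29 without the filter, which counts 31 members; under the other alternatives, the median without Hemgn included (an alternative chosen after seeing the data), it lay between -0.12 and -0.05. Normexp with its offset of 50 lowers differences of dim probes by construction, and 17 genes of the array were then 2-fold higher and 32 lower. Of all genes called, 32.4% were higher, and 42.6% with loess scaling or the authors' table. Scaling to the median of probes moved the median of all genes from 0.01 to 0.07. Of the members' differences, Epor, Hbb-bh1, Epb4.1 and Ermap moved by more than their software error under 1 alternative each. A signal near background carries no direction, which limits the 13 members that were not measured. No paired analysis was possible because each group is 1 array.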
